A study of Sus scrofa with 16 samples.

Results

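The choroid plexus is a secretory tissue in the brain ventricles, and one of its sheets lies against the hippocampus, so a dissected hippocampus can carry some of it. Its epithelium makes cerebrospinal fluid and is the main source of transthyretin (TTR) in the brain, a secreted carrier of thyroid hormone that also binds the retinol carrier RBP4. Besides TTR, this section follows genes known from that epithelium: the transcription factor OTX2, the prolactin receptor PRLR, the co-receptor klotho (KL), the folate receptor FOLR1, the water channel AQP1, the chloride channel protein CLIC6, the sodium bicarbonate cotransporter SLC4A5, the potassium channel KCNJ13 and ENPP2. ENPP2 encodes autotaxin, the secreted enzyme that makes lysophosphatidic acid, and it is also known from myelinating oligodendrocytes, so it is not a marker of the choroid plexus alone.

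Of these 10 genes, 7 were found through their Ensembl gene IDs among the 21956 gene IDs of the table, and KL, FOLR1 and AQP1 were not found by ID. The 7 genes gave 8 distinct entries, because KCNJ13 (ENSSSCG00000025038) had 2 entries with different values under 1 ID. Nothing in the table says which transcript or model each KCNJ13 entry stands for, so they are given as the first and the second entry and may share reads. The IDs of the other genes were ENSSSCG00000023686 (TTR), ENSSSCG00000005063 (OTX2), ENSSSCG00000016830 (PRLR), ENSSSCG00000028112 (CLIC6), ENSSSCG00000027320 (SLC4A5) and ENSSSCG00000006001 (ENPP2). The files were made on the pig build Sscrofa10.2, and since the reference at hand was of another build, no positions are given.

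The RNA came from the left hippocampi of 16 crossbred preterm pigs that had been delivered by cesarean section, fed human donor milk with parenteral nutrition, and killed about a week after birth. The type of donor milk differed between pigs and is not given in the labels. Necrotizing enterocolitis (NEC), an inflammatory gut disease of preterm newborns, arose spontaneously in some of them. The 6 Si-NEC pigs (3 female, 3 male) had lesions in the small intestine. That group was defined as with or without colon lesions, and the labels do not say which pigs had both. The 5 Co-NEC pigs (2 female, 3 male) had lesions in the colon only, and the 5 No NEC pigs (2 female, 3 male) had none. Each pig gave 1 library and is named here by its number. The labels do not tie pigs to litters, and they do not say what the endings 14 and 15 of the numbers mean.

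Values are FPKM, fragments per kilobase of transcript scaled to the fragments sequenced, as deposited, so levels can be set side by side between genes per length. The table holds no read counts, and the depth behind a value is unknown. The FPKM values of a pig summed to between 544629 and 864931, and No NEC pig 230-15 and Si-NEC pig 223-15, which had the highest sums, stood apart from the other pigs. A value of exactly 0 can be a failed estimate, since 49 of the 4038 entries whose mean exceeded 20 FPKM stood at 0 in some pig.

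The levels of the choroid plexus genes were low, except for ENPP2 and TTR. Over the 16 pigs, the mean level was 32.9 FPKM for ENPP2 and 11.2 FPKM for TTR. It was 1.31 FPKM for the first KCNJ13 entry, 0.838 FPKM for SLC4A5 and 0.786 FPKM for the second KCNJ13 entry, the last being the member just above the minimum mean of 0.5 FPKM set for testing. OTX2, with a mean of 0.176 FPKM, was the member just below it, and CLIC6 and PRLR were lower still. So 5 entries of 4 genes were tested across all genes, and OTX2, CLIC6 and PRLR are given by their levels and by tests on their own.

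Other genes known from choroid plexus epithelium were in part listed at 0 in these hippocampi. Of 23 such genes, 15 were found and 9 passed the minimum. TMEM72, SOSTDC1 and STEAP1 were listed at 0 in all 16 pigs, LMX1A and MFRP in 10 pigs each and TRPV4 in 8. Among the highest were the second SPINT2 entry at 16.1 FPKM, the third entry of SLC13A4, a sulfate transporter that meningeal cells also use, at 15.1, the coagulation factor F5 at 9.66 and the serotonin receptor HTR2C, which neurons also use, at 6.41. KRT8, an epithelial keratin, had a mean of 0.642 FPKM and was listed at 0 in 2 pigs. The set is therefore called here by its genes, and the amount of choroid plexus in a sample is not read from it.

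TTR varied between pigs more than most tested genes of its level. In the No NEC pigs it was 23.4 (pig 230-15), 23.0 (228-15), 15.97 (550-14), 8.73 (253-15) and 4.73 FPKM (540-14). In the Co-NEC pigs it was 13.1 (225-15), 12.3 (231-15), 4.70 (545-14) and 4.13 FPKM (552-14), and it was listed at 0 in pig 255-15. The 6 Si-NEC pigs ran from 5.39 (539-14) through a median of 8.92 to 25.3 FPKM (246-15). The highest and the lowest TTR of the study were thus in the 2 groups with NEC, and all 3 groups overlapped. TTR was the only tested entry that was at 0 in pig 255-15 alone while the other 15 pigs were all above 4 FPKM. Such lone zeros were also seen elsewhere, with 8 entries in pig 230-15. There was 1 entry each in pigs 540-14, 550-14, 231-15, 223-15, 547-14 and 246-15, and 0 in each of the remaining pigs.

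The coefficient of variation of TTR over the 16 pigs was 67.1%, against a median of 22.4% over the 13590 entries tested. Among the entries of most similar mean level, it stood at percentile 98.0. SLC4A5 had 61.7% (percentile 80.6 among its own neighbors in level) and ENPP2 26.2% (percentile 78.2). The KCNJ13 entries had 17.9% (percentile 3.99) and 32.2% (percentile 29.3). Below the minimum level, PRLR had 88.4%, CLIC6 70.8% and OTX2 33.3%, at levels where the counting error is not known. The spread between pigs thus differed widely within the set.

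SLC4A5, which moves sodium and bicarbonate across the epithelium toward the fluid, had its extremes within the No NEC group. Those pigs had 2.17 (228-15), 0.607 (550-14), 0.438 (253-15), 0.270 (540-14) and 0.190 FPKM (230-15). The Co-NEC pigs had 1.52 (552-14), 1.06 (255-15), 0.713 (225-15), 0.678 (231-15) and 0.420 FPKM (545-14). The Si-NEC pigs ran from 0.531 (223-15) through a median of 0.811 to 1.35 FPKM (226-15). The pig with the highest SLC4A5, 228-15, also had one of the highest TTR values, but pig 230-15 had the lowest SLC4A5 and a TTR almost as high.

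KCNJ13, which encodes the inwardly rectifying potassium channel Kir7.1 of the apical membrane, was low in all pigs. Its first entry ranged from 1.07 to 1.51 FPKM in the No NEC pigs, from 1.08 to 1.74 in the Co-NEC pigs and from 0.897 to 1.46 in the Si-NEC pigs. Its second entry varied more, from 0.607 to 0.948, from 0.540 to 1.23 and from 0.379 to 1.35 FPKM. The first entry was highest in Co-NEC pig 552-14 and the second in Si-NEC pig 223-15, and these pigs also had the highest ENPP2.

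ENPP2 was the most abundant of the set in 15 of 16 pigs, the exception being Si-NEC pig 246-15, where TTR was higher. The No NEC pigs had 41.3 (230-15), 35.0 (550-14), 29.8 (540-14), 29.1 (228-15) and 28.9 FPKM (253-15). The Co-NEC pigs had 54.8 (552-14), 39.3 (545-14), 32.1 (231-15), 31.7 (255-15) and 27.4 FPKM (225-15), and the Si-NEC pigs ran from 22.5 (246-15) through a median of 26.6 to 45.6 FPKM (223-15). Pig 246-15, with the highest TTR, thus had the lowest ENPP2.

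OTX2, the transcription factor that directs choroid plexus development, was never above 0.263 FPKM. It was 0.260, 0.214, 0.201, 0.198 and 0.150 FPKM in No NEC pigs 550-14, 228-15, 540-14, 230-15 and 253-15, and 0.219, 0.172, 0.142, 0.0928 and 0.0789 FPKM in Co-NEC pigs 231-15, 225-15, 552-14, 545-14 and 255-15. In the Si-NEC pigs it ran from 0.0933 (547-14) through a median of 0.188 to 0.263 FPKM (224-15). CLIC6 was at most 0.331 FPKM (No NEC pig 228-15) and was listed at 0 in Co-NEC pig 552-14 and Si-NEC pig 547-14. PRLR, the prolactin receptor, was at most 0.373 FPKM (Si-NEC pig 224-15) and was listed at 0 in Co-NEC pig 545-14 and Si-NEC pig 547-14. Co-NEC pig 255-15, with TTR at 0, also had the lowest OTX2, but its CLIC6 of 0.232 FPKM was the second highest.

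**Figure D1:**
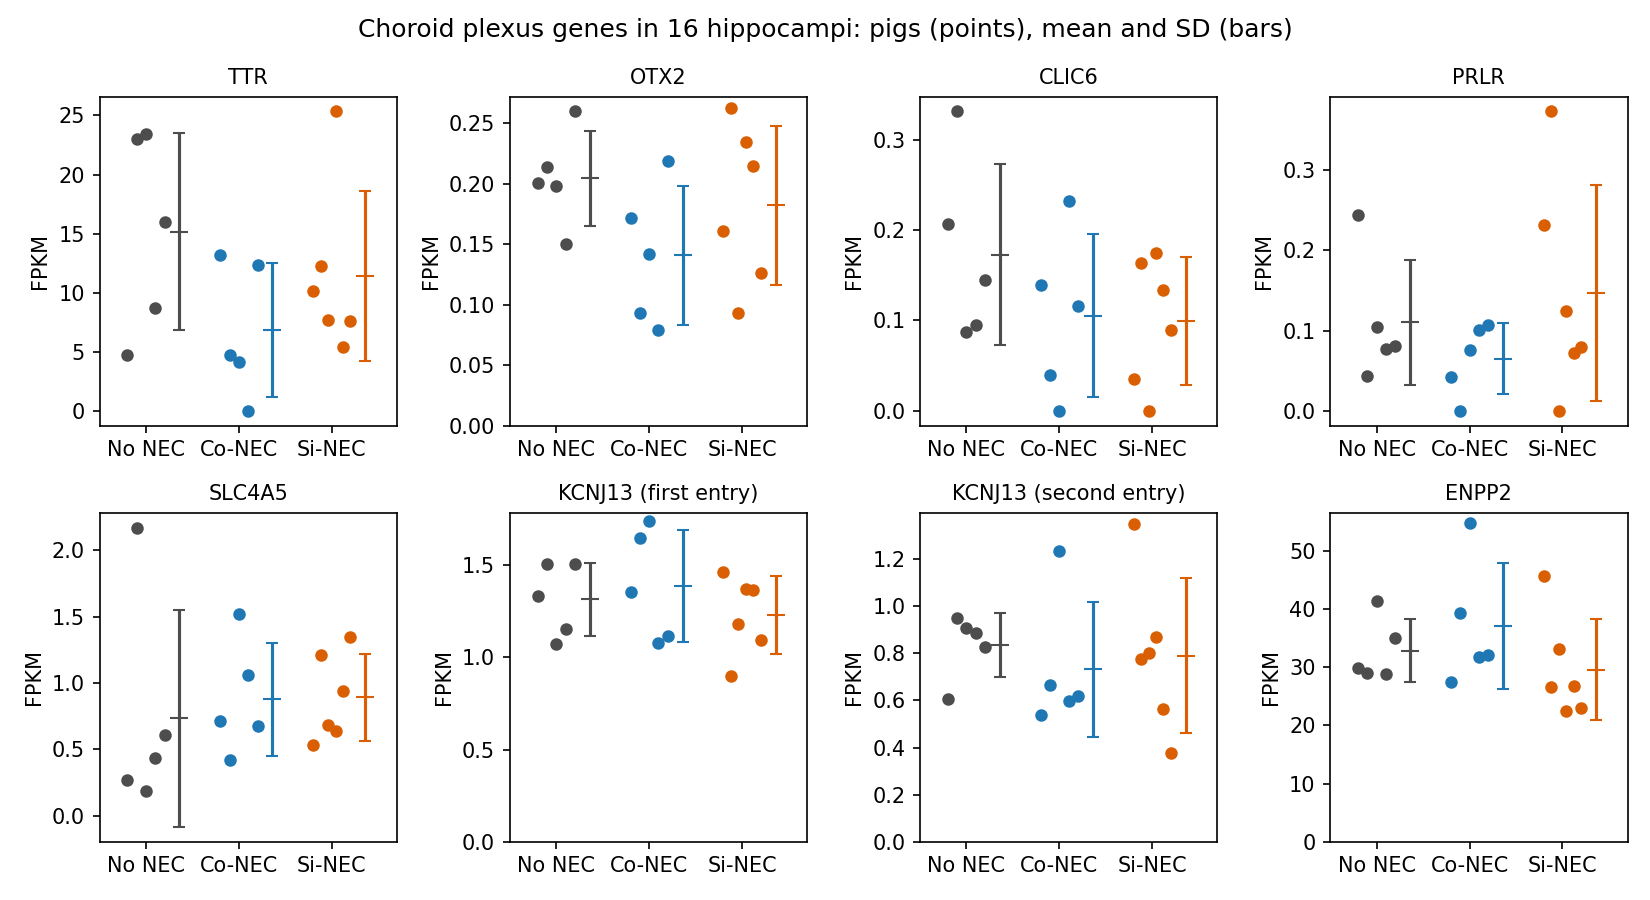
Level in FPKM (vertical axes, each from its own scale) of the 7 choroid plexus genes found, as 8 entries, in the No NEC, Co-NEC and Si-NEC pigs; points are pigs, and bars give the group mean and SD. The groups overlap in every panel, and TTR spans 0 to 25.3 FPKM.

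Whether the genes rose and fell together from pig to pig was asked next, since a shared course is what a varying amount of 1 tissue in the samples would look like. All correlations are of log2(FPKM + 0.5) over the 16 pigs, and genes in 1 library share its depth and RNA quality. The 8 entries form 28 pairs, of which 15 had a positive Pearson r. The median r of the pairs was 0.04, with a range from -0.57 (CLIC6 with ENPP2) to 0.67 (OTX2 with TTR). No shared course of the whole set was seen. Many of the pairs hold OTX2, CLIC6 or PRLR, whose means lie under 0.5 FPKM. The KCNJ13 entries, which may share reads, also form a pair. The error at such low levels is not known, which limits what the median r can show.

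TTR in particular had an r of at most 0.26 with the other tested members. Its r was 0.26 with the second KCNJ13 entry (Spearman rho 0.32), 0.06 with the first (rho -0.06), -0.12 with SLC4A5 (rho -0.15) and -0.16 with ENPP2 (rho -0.21). The permutation p-values of these r, adjusted by Benjamini-Hochberg over the 13589 entries correlated with TTR, were 0.824, 0.964, 0.907 and 0.872. After the 2 pigs whose TTR lay farthest from its median, 255-15 and 246-15, were left out, the values of r were 0.16, -0.34, 0.05 and -0.13, so for the first KCNJ13 entry and SLC4A5 the sign rested on those pigs. Of all 13589 entries, 0 (0%) passed an adjusted p of 0.05 with TTR by Pearson r or by Spearman rho, and 332 (2.44%) had an unadjusted Pearson p under 0.05.

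The pairs with the highest r, OTX2 with TTR and ENPP2 with the second KCNJ13 entry (r 0.66), were singled out after their values were seen. For OTX2, r with TTR was 0.67 (permutation p = 0.00211) and rho 0.66 (permutation p = 0.00688), and when all 16977 entries above 0 were correlated with TTR, without a minimum level, the adjusted p-values were 0.854 and 0.969. Without pigs 255-15 and 246-15 the r was 0.52 (permutation p = 0.0595). All the OTX2 values lie between 0.0789 and 0.263 FPKM, where the number of reads behind each value is not known. CLIC6 had r 0.02 and rho 0.24 with TTR, and without those 2 pigs an r of 0.47 (permutation p = 0.0866), so its value rested on them. PRLR had r 0.06 and rho 0.21, and 0.06 without them. OTX2 with PRLR (r 0.50) and OTX2 with CLIC6 (r 0.44) were on the positive side.

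**Figure D2:**
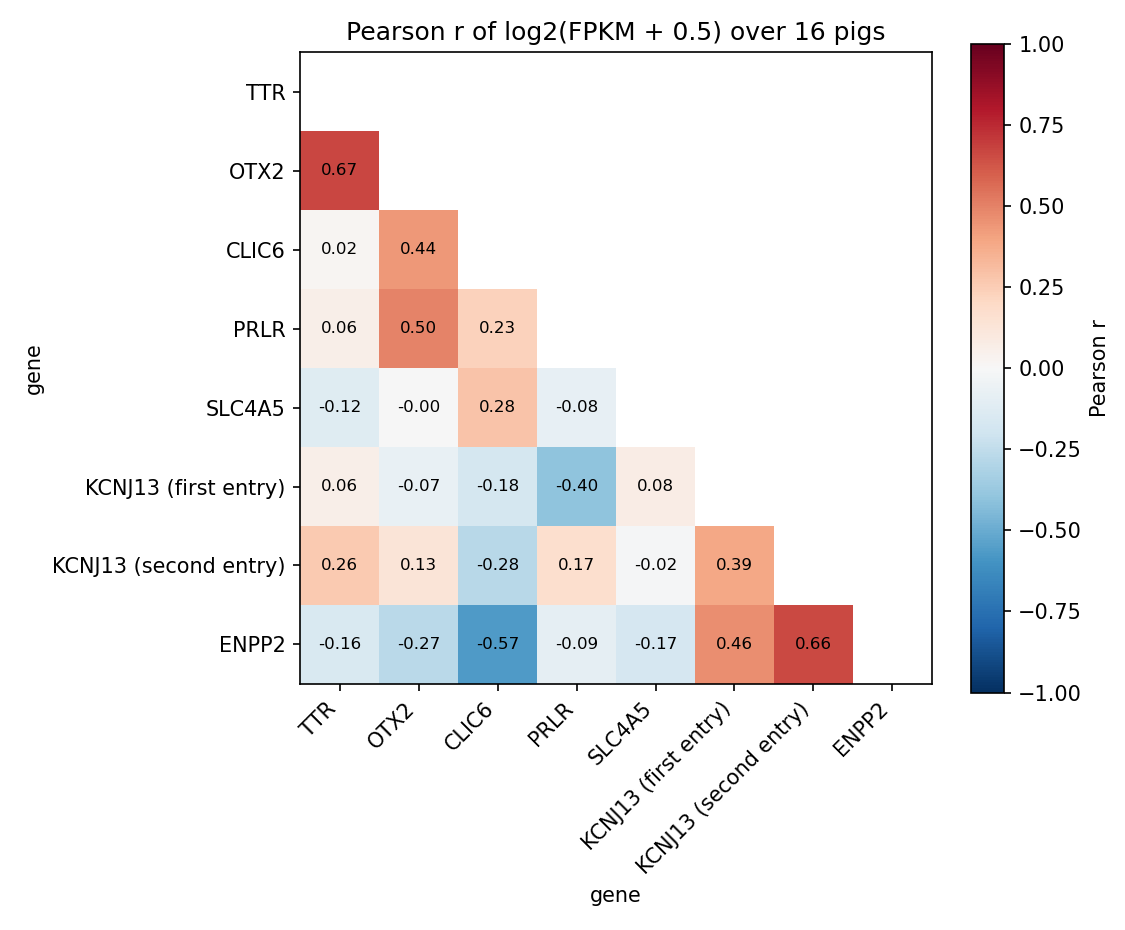
Pearson r of log2(FPKM + 0.5) over the 16 pigs for each of the 28 pairs of the 8 entries, with both axes listing the genes and color giving r from -1 to 1. The values run from -0.57 for CLIC6 with ENPP2 to 0.67 for OTX2 with TTR, with a median of 0.04.

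Of the 11 tested entries of the other choroid plexus genes, 0 passed an adjusted p of 0.05 with TTR. Their r with TTR ranged from -0.34 (RBM47) to 0.35 (the third SLC13A4 entry), with a median of 0.16, and 7 of 11 were positive. MSX1, a homeobox gene of the dorsal midline, had r 0.32 and rho 0.59 (adjusted permutation p of rho 0.969). Among the 13 partners of the pathways, the retinol receptor STRA6 had r 0.26 with TTR, the retinol carrier RBP4 had 0.14, and FGF1 had -0.33. None of the partners had an adjusted p under 0.05.

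Markers of tissues that border the hippocampus were set beside TTR as well. The median r with TTR was 0.04 over 7 ependymal cilia entries, -0.06 over 8 meningeal and vascular fibroblast entries, -0.12 over 5 mature oligodendrocyte entries, 0.08 over 4 endothelial and blood entries, 0.21 over 5 hippocampal neuron entries and 0.06 over 6 thalamic and habenular neuron entries. The strongest in these lists were the second MOG entry, a myelin gene, at -0.60 and LUM, a meningeal fibroblast gene, at 0.51. In the list of fluid secretion and ion transport, the carbonic anhydrase CA4 had r 0.57 (adjusted permutation p = 0.824). The amount of choroid plexus or of bordering tissue in each dissected hippocampus is not recorded, and its part in the TTR levels was not tested.

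By the endings of the pig numbers, the 6 pigs ending in 14 had TTR from 4.13 to 15.97 FPKM (median 5.06) and the 10 pigs ending in 15 had 0 to 25.3 FPKM (median 12.3). Both endings occur in all 3 groups, and TTR levels overlapped between them. Within the pigs ending in 15 the r of TTR was 0.33 with the second KCNJ13 entry and -0.06 with ENPP2, and within those ending in 14 it was 0.02 and -0.22.

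Within the set, ENPP2 had r 0.66 with the second KCNJ13 entry (rho 0.53, adjusted permutation p of r 0.289) and 0.46 with the first (rho 0.36, adjusted permutation p of r 0.332), and these fell to 0.33 and 0.16 without pigs 552-14 and 223-15, which lie farthest from the median of ENPP2. ENPP2 also went with genes of oligodendrocytes. Its r with CLDN11, the claudin of central myelin, which was singled out after its value was seen, was 0.87 (permutation p = 3e-05). Adjusted over 13589 entries that p was 0.0453, and rho was 0.79 (adjusted p = 0.115). Without the same 2 pigs the r was 0.77 (permutation p = 0.00128, adjusted p = 0.138), so the direction and most of the size held but the call did not. Within the pigs ending in 14 and in 15, the r was 0.71 and 0.96.

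Named genes of the oligodendrocyte list had the same sign without passing the test. OPALIN, a protein of myelinating cells, was 62.7 FPKM in pig 552-14 and 83.6 in pig 230-15, but 32.2 in pig 223-15, although these are the 3 pigs with the highest ENPP2. It had r 0.71 with ENPP2 (adjusted permutation p = 0.261), and 0.93 without pigs 552-14 and 223-15 (adjusted permutation p = 0.0679). The r was 0.60 for CNP and 0.42 and 0.36 for the 2 MOG entries. All 5 oligodendrocyte entries were positive, with a median r of 0.60, beside a median of -0.04 for the 11 other choroid plexus entries and 0.37 for the 7 ependymal cilia entries. In the last list TEKT1, a tektin of motile cilia, had r 0.68 (adjusted permutation p = 0.284). On the negative side were the endothelial genes PECAM1 (r -0.58) and FLT1 (r -0.51) and the retinol receptor STRA6 (r -0.58).

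Over all entries, 11 of 13589 (0.0809%) passed an adjusted p of 0.05 with ENPP2. They included CLDN11, EVI2A, GAB1, CERS2 (which makes very long chain ceramides), 1 entry of CLCA2 and ABLIM3, and ABLIM3 had a negative sign (r -0.88). The count moved widely with single pigs: it was 0 without pig 552-14 or 223-15, 3 without pig 230-15 or 226-15, and 6 to 15 without any other single pig. No entry passed with SLC4A5 or with either KCNJ13 entry (0%), where 2027 (14.9%), 435 (3.20%) and 928 (6.83%) had an unadjusted p under 0.05. For ENPP2 that number was 2120 (15.6%).

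**Figure D3:**
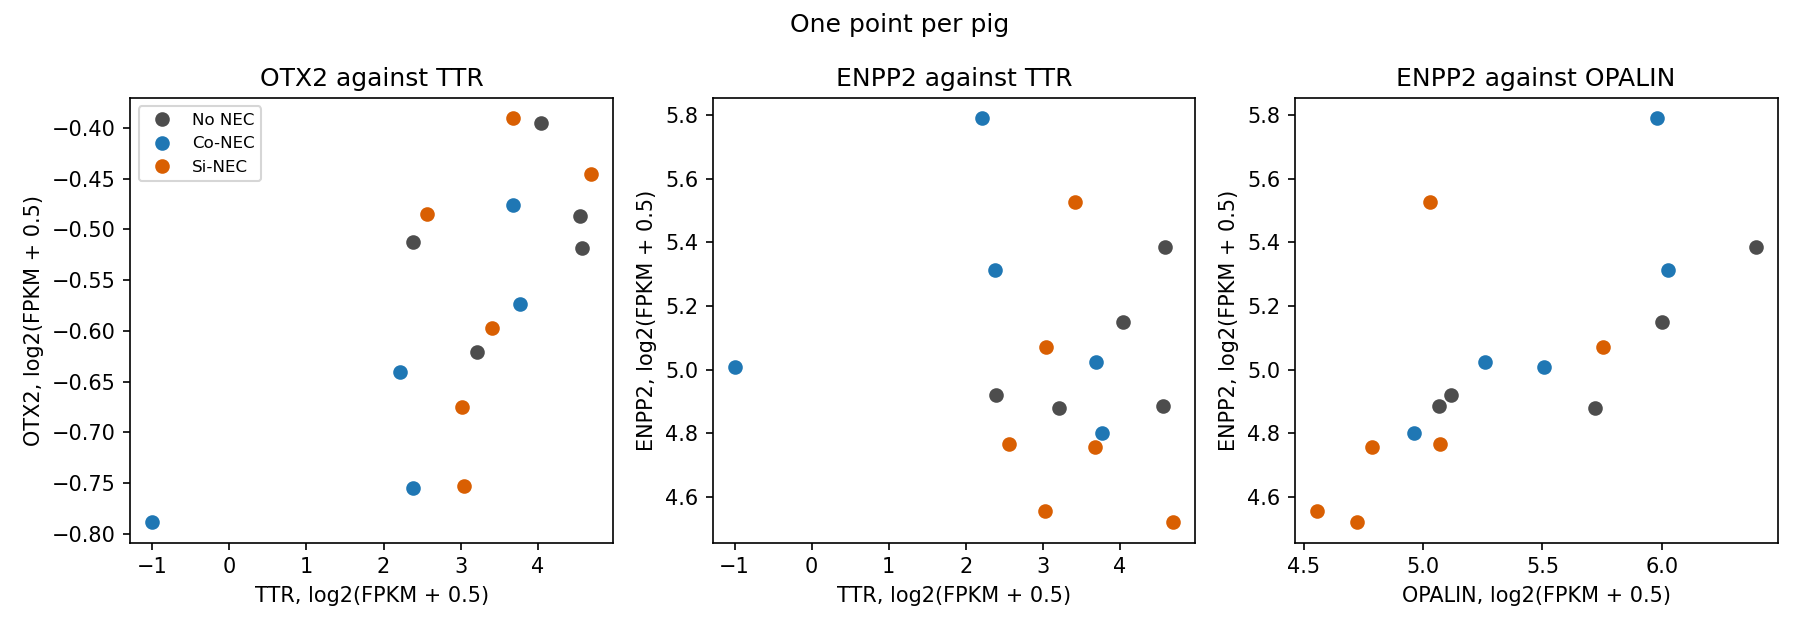
OTX2 against TTR, ENPP2 against TTR and ENPP2 against OPALIN, all as log2(FPKM + 0.5), with 1 point per pig and color for the group. The values of r are 0.67, -0.16 and 0.71; Co-NEC pig 255-15, with TTR listed at 0, is the point at the far left of the first and second panels.

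A combined index was the mean z score of log2(FPKM + 0.5) over the 4 tested genes, with the z scores of the 2 KCNJ13 entries averaged first. The index was highest in Co-NEC pig 552-14 (1.14) and No NEC pig 228-15 (0.88) and lowest in Co-NEC pig 255-15 (-0.83). Its r was 0.77 with the second KCNJ13 entry, 0.62 with the first, 0.60 with ENPP2, 0.43 with TTR and 0.36 with SLC4A5, so the index is led by KCNJ13 and ENPP2 rather than by TTR. Outside the set, the genes whose pattern over the 16 pigs was most like the index included PDGFC (r 0.77), FLT3 (0.77), GAB1 (0.73), SEPTIN10 (0.72), ESM1 (0.70), CDH19 (0.70), MUSK (0.69), BAMBI (0.68) and SPATS2L (0.67). Those least like it were NOS3 (-0.75), DEF6 (-0.72) and EDC4 (-0.67). None of those named belongs to the list of other choroid plexus genes.

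The levels were then compared between pigs with and without NEC. In these bulk samples, fewer cells of a type and less RNA per cell cannot be told apart. No member differed between Si-NEC and No NEC pigs at the study's adjusted p of 0.2. Over all 13590 entries tested with limma, 1 (0.00736%) passed at 0.2 and the same number at 0.05, while 355 (2.61%) had an unadjusted p under 0.05, so a count of 0 among 5 member entries is what the background gives.

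TTR averaged 11.4 ± 7.22 FPKM in the Si-NEC pigs (SD, n = 6) and 15.2 ± 8.36 in the No NEC pigs (SD, n = 5). The fitted log2 fold change was -0.35 (SE 0.45, 95% confidence interval -1.33 to 0.63), with a limma adjusted p of 1 and an exact permutation p of 0.491. Within the pigs ending in 14 the log2 difference was -0.42 and within those ending in 15 it was -0.41. The difference is smaller than the spread between pigs, and the interval still holds changes of over 1 log2 unit downward.

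ENPP2 averaged 29.6 ± 8.71 FPKM in the Si-NEC and 32.8 ± 5.36 in the No NEC pigs, and the log2 fold change was -0.18 (SE 0.18, interval -0.58 to 0.22, exact permutation p = 0.387). The KCNJ13 entries changed by -0.07 (SE 0.14, interval -0.37 to 0.22) and -0.08 (SE 0.18, interval -0.48 to 0.32). SLC4A5 averaged 0.891 ± 0.330 and 0.734 ± 0.817 FPKM, a log2 fold change of 0.33 (SE 0.32, interval -0.37 to 1.03). Its 5 No NEC values are spread by pig 228-15, and without that pig the fold change was 0.66 (limma adjusted p = 0.990, exact permutation p = 0.0238).

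For the genes under the minimum level, the group means of Si-NEC and No NEC were 0.182 and 0.205 FPKM for OTX2, 0.0992 and 0.173 for CLIC6, and 0.147 and 0.110 for PRLR. Their exact permutation p-values were 0.494, 0.197 and 0.665, where the smallest that 6 against 5 pigs can give is 0.00216. No member had groups that did not overlap, which was the case for 21 of the 13590 entries (0.155%).

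Between Co-NEC and No NEC pigs, again no member passed, against 1 of 13590 entries (0.00736%) at 0.2 and 467 (3.44%) at an unadjusted p under 0.05. TTR averaged 6.86 ± 5.67 FPKM in the Co-NEC pigs (SD, n = 5), below the 15.2 FPKM of the No NEC pigs. This log2 fold change, -1.55 (SE 0.83, interval -3.38 to 0.29), was the greatest in size of any tested member in the 3 comparisons, with a limma adjusted p of 0.812 and an exact permutation p of 0.127. The pig listed at 0 made up much of it: without pig 255-15 the fold change was -0.74 (adjusted p = 0.713). Within the pigs ending in 14 and in 15 the log2 difference was -0.92 and -1.96.

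The remaining members were closer between these groups. ENPP2 averaged 37.1 ± 10.8 FPKM in the Co-NEC pigs, a log2 fold change of 0.14 over No NEC (SE 0.18, interval -0.26 to 0.55, exact permutation p = 0.508). The KCNJ13 entries changed by 0.05 (interval -0.27 to 0.37) and -0.14 (interval -0.50 to 0.23). SLC4A5, at 0.877 ± 0.424 FPKM, changed by 0.30 (interval -0.49 to 1.09), and by 0.62 without No NEC pig 228-15 (limma adjusted p = 0.620, exact permutation p = 0.0476).

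OTX2 averaged 0.141 FPKM in the Co-NEC and 0.205 in the No NEC pigs (exact permutation p = 0.0873), CLIC6 0.105 and 0.173 (exact permutation p = 0.286), and PRLR 0.0649 and 0.110 (exact permutation p = 0.302). The smallest p that 5 against 5 pigs can give is 0.00794. Of the 24 exact tests of the 8 entries over the 3 comparisons, none was under 0.05 with all pigs in. No member's groups were apart, against 63 of 13590 entries (0.464%).

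Between the Si-NEC and Co-NEC pigs, 2 of 13590 entries (0.0147%) passed at 0.2 and 767 (5.64%) had an unadjusted p under 0.05, and none of these was a member. The TTR log2 fold change, Si-NEC over Co-NEC, was 1.19 (SE 0.74, interval -0.42 to 2.80, limma adjusted p = 0.867, exact permutation p = 0.193), and it was 0.39 without pig 255-15. ENPP2 changed by -0.32 (SE 0.21, interval -0.77 to 0.13, exact permutation p = 0.214), SLC4A5 by 0.03 (interval -0.45 to 0.52), and the KCNJ13 entries by -0.12 (interval -0.43 to 0.19) and 0.05 (interval -0.38 to 0.49). OTX2, CLIC6 and PRLR had exact permutation p-values of 0.303, 0.926 and 0.260. No member's groups were apart, against 74 of 13590 entries (0.545%).

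**Figure D4:**
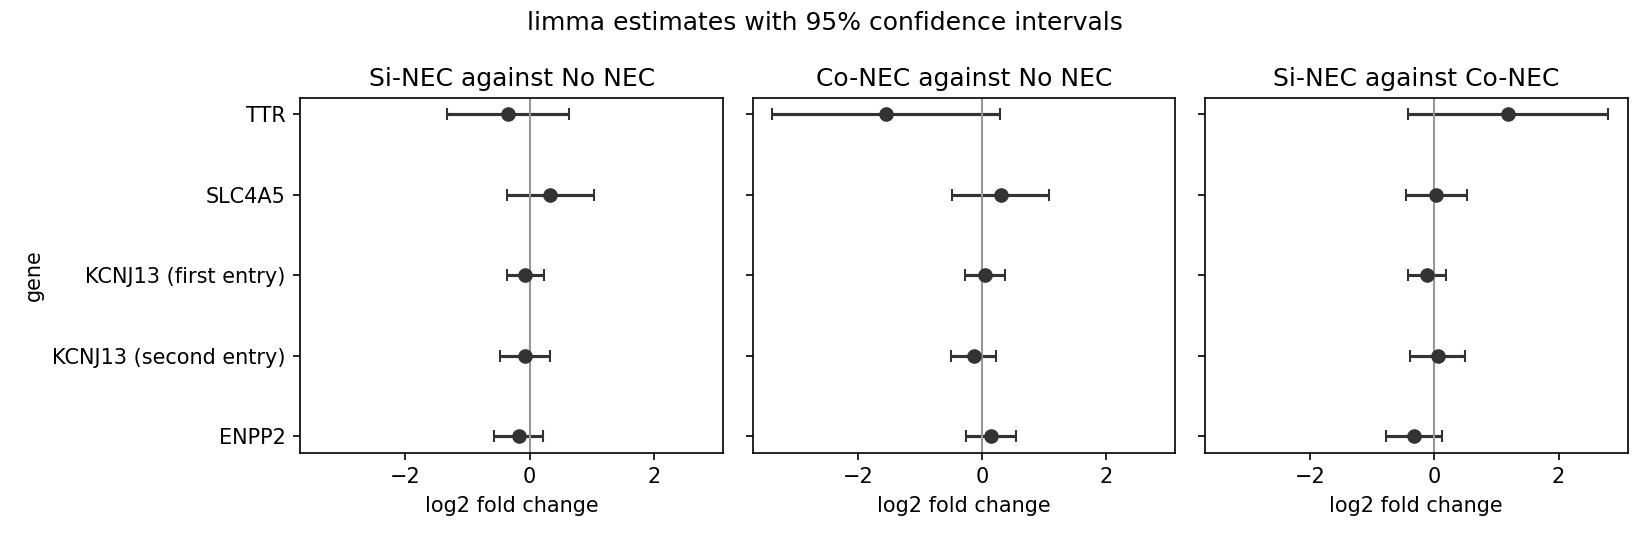
Log2 fold changes (horizontal axes) of the 5 tested entries in each pair of groups, as limma estimates with 95% confidence intervals. Every interval spans 0, and those of TTR are the widest, from -3.38 to 0.29 for Co-NEC against No NEC.

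Genes that work with the members did not pass the test either. In the 3 comparisons, 0 entries of any list were called higher or lower by limma at 0.2. Of the 23 other choroid plexus genes, 11 entries were tested, and their median log2 fold change was -0.02 for Si-NEC over No NEC, beside 0.015 over all entries. The smallest unadjusted p in that comparison belonged to the first SLC13A4 entry (-0.46), STEAP2 (0.21), the first SPINT2 entry (-0.29) and RBM47 (0.17).

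For fluid secretion and ion transport, 11 of 14 genes were found and 12 entries tested, and the median log2 fold change, Si-NEC over No NEC, was -0.06. CA2, the cytosolic carbonic anhydrase, had 0.76, and the first ATP1B1 entry, a subunit of the sodium pump, 0.41. In Si-NEC against Co-NEC the first ATP1B1 entry had 1.09 and the smallest adjusted p of the list was 0.851.

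For the partners of the pathways, meaning carriers, transporters and signaling genes that act with TTR, PRLR, KL, FOLR1 or ENPP2, 13 of 23 genes were found and all were tested. Their median, as log2 Si-NEC over No NEC, was 0.03. STAT5A, which carries the prolactin receptor signal, had 0.27, the folate transporter SLC46A1 0.41, JAK2, the kinase bound to that receptor, 0.13, and the thyroid hormone transporter SLCO1C1 -0.12. In Co-NEC against No NEC the list's median was 0.00, and JAK2 and SLC46A1 both had 0.30.

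The bordering tissues were read the same way in Si-NEC against No NEC. The median log2 fold change was 0.07 over 7 ependymal cilia entries (8 of 14 genes found), -0.04 over 8 meningeal and vascular fibroblast entries (9 of 11 found), -0.04 over 5 mature oligodendrocyte entries (4 of 9 found), -0.25 over 4 endothelial and blood entries (4 of 8 found), 0.14 over 5 hippocampal neuron entries (5 of 10 found) and -0.02 over 6 thalamic and habenular neuron entries (8 of 9 found). The entry with the smallest unadjusted p in each was AK7 (0.17), DCN (-0.44), OPALIN (-0.67), ALAS2 (-0.74), NEUROD1 (0.31) and TCF7L2 (0.28), and none passed. For Co-NEC against No NEC the ependymal median was 0.23, with SPAG6 at 0.45.

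The group comparisons were also fitted with the choroid plexus genes as a covariate. With the member index as a covariate in the limma fit, 1 entry was called at 0.2 in each of the 3 comparisons, and with log2 TTR alone as the covariate 1, 1 and 2 were called, against 1, 1 and 2 without a covariate, counts too small to show a dependence. Entries with an unadjusted p under 0.05 numbered 369, 440 and 793 with the index and 331, 644 and 1269 with log2 TTR, against 355, 467 and 767 without a covariate, in the order Si-NEC against No NEC, Co-NEC against No NEC and Si-NEC against Co-NEC.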

How the data were processed

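RNA was sequenced from 16 left hippocampi (6 Si-NEC, 5 Co-NEC, 5 No NEC), with groups and sexes from the labels. The authors trimmed paired reads, aligned them with Tophat 2.1.1 to Sscrofa10.2 and estimated gene levels with Cufflinks 2.2.1, and the deposited values are FPKM. Of 24594 rows, 1779 identical ones were dropped, and the 13590 entries averaging 0.5 FPKM or more were tested. Symbols came from a reference table of gene IDs, which named 11001 of 21956 IDs. Each pair of groups was fitted on log2(FPKM + 0.5), which understates changes of low genes, with limma 3.58.1 (R 4.3.3, eBayes with trend), Benjamini-Hochberg adjustment and thresholds of 0.2 and 0.05. Two-sided exact permutation tests compared single members. Correlations used 100000 two-sided permutations (numpy 2.4.6), adjusted over all entries for each gene correlated. Fits were checked on simulated data. The study called genes with Cuffdiff, which needs reads.

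The members and lists were chosen with earlier results of these data known. All 10 members were to be named, from each other list up to 4 genes with the smallest unadjusted p in Si-NEC against No NEC, and the 10 genes most and 3 least like the index. Named outside that rule, after their values were seen, were genes cited for their level or their correlation with a member, and the genes called with ENPP2. The correlations with members other than TTR, and their alternatives, were also added after the data were seen. Alternatives were pseudocounts of 0.1 and 1, no minimum or a minimum of 1 FPKM, rescaling by the median of ratios, 1 fit of all groups, covariates for sex and number ending, array weights, and leaving out pigs. The pigs are separate animals, but litters are not given. Shared litters could make p-values too small, depending on how litters fell across the groups, which is not known. Some genes that these rules name are not reported here.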

Additional observations from a re-analysis of the deposited data

Results flagged for a closer look

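In 3 of the 24 sets of values made by 8 entries in 3 groups, 1 pig lay far from the others by Dixon's gap test. Chance alone gives this in about 1 of 20 sets if values are normally distributed, which was not tested for these FPKM. The TTR level of Si-NEC pig 246-15, 25.3 FPKM, was far above the other 5 Si-NEC pigs. The SLC4A5 level of No NEC pig 228-15, 2.17 FPKM, was far above the other 4 No NEC pigs. The second KCNJ13 entry was 1.23 FPKM in Co-NEC pig 552-14, far above the other 4 Co-NEC pigs.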

How the results depend on the processing

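No member was called between groups under any alternative: of 304 fold changes of tested members under other settings, 291 kept their direction, 13 reversed and 0 passed, the smallest adjusted p being 0.253. Reversals with all pigs, or with 2 left out, were of main estimates of 0.05. The first KCNJ13 entry in Co-NEC against No NEC was -0.00082 without pigs 223-15 and 230-15. The second in Si-NEC against Co-NEC was -0.16 with array weights, larger in size than its main estimate, and -0.056 without those pigs. Leaving out single pigs gave TTR log2 fold changes of -0.70 to -0.15 (Si-NEC against No NEC), -1.94 to -0.74 (Co-NEC against No NEC) and 0.39 to 1.58 (Si-NEC against Co-NEC), the values nearest 0 in the last 2 being those without pig 255-15. It gave -0.19 to 0.022 for the second KCNJ13 entry in the first comparison, -0.017 to 0.11 for the first KCNJ13 entry and -0.0064 to 0.24 for ENPP2 in the second, and -0.056 to 0.19 for the second KCNJ13 entry and -0.10 to 0.18 for SLC4A5 in the third. Exact tests under 0.05 numbered 0 to 1, 0 to 1 and 0 to 0: besides SLC4A5 without pig 228-15, they were the second KCNJ13 entry (-0.27, exact permutation p = 0.0317) without pig 552-14 and OTX2 (-0.18, exact permutation p = 0.0238) without pig 231-15, both in Co-NEC against No NEC.

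Over all entries, the calls numbered 1 to 3, 1 to 2 and 1 to 12 with single pigs left out. In Si-NEC against No NEC there were 2 with the number ending as covariate and 4 with array weights, and in Co-NEC against No NEC 4 without a minimum. In Si-NEC against Co-NEC there were 201 with array weights and 1 with a pseudocount of 0.1, no minimum, 1 fit of all groups, sex or number ending as covariate, a threshold of 0.05, or without pigs 223-15 and 230-15. With log2 TTR in place of the member index as covariate, 2 were called there in place of 1. The cause of these shifts was not tested.

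No entry was called with TTR under any setting. The r of the first KCNJ13 entry with TTR was -0.34 without the 2 pigs farthest from the TTR median, -0.23 in the pigs ending in 14, and -0.27 to 0.16 with single pigs left out. That of SLC4A5 was 0.050 without those 2 pigs, 0.023 without pigs 223-15 and 230-15, and -0.34 to 0.019 with single pigs left out. The calls with ENPP2 numbered 4 after rescaling, 29 with group means removed (all 11 among them), 0 without pigs 223-15 and 230-15, 0 in the pigs of either ending alone, and 0 to 15 with single pigs left out. The r of CLDN11 with ENPP2 was 0.84 to 0.91 with single pigs left out and 0.82 without pigs 223-15 and 230-15 (adjusted permutation p = 0.172).

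No paired analysis was possible because the labels give each pig its own number and no replicate number shared between groups. FPKM without counts leave the depth, and with it the error of levels under 0.5 FPKM, unknown.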
